A study of Mus musculus with 6 samples.

Results

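The kinesins are the motor proteins that move along microtubules with the energy of ATP. All rows of the count table whose gene symbol begins with Kif and a digit were taken, which gave 40 of 24594 rows. They hold 38 genes named as motors, the pseudogene Kif4-ps and the opposite-strand transcript Kif16bos. The motors were sorted by textbook role into 12 mitotic kinesins, which build the spindle, align chromosomes or complete cytokinesis, 13 transport kinesins, which carry vesicles, organelles or ciliary cargo, and 13 others, which serve cilia, microtubule dynamics or other functions. Members were chosen with earlier results of these data known. Kif2a and Kif24, placed among the others, can also be counted as mitotic. Because Cenpe and the Kifc genes are also kinesins but carry other symbols, they stand apart below.

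The cells were mouse small-intestinal organoids, cultured epithelium with crypt-like and villus-like regions. They had grown for 96 h from single cells and then received, for 24 h, either 5 uM NIBR-LTSi or a corresponding volume of the solvent DMSO. NIBR-LTSi is an inhibitor of LATS1 and LATS2, the Hippo pathway kinases that hold back the co-activators YAP and TAZ. There are 3 RNA sequencing libraries per group, all from this organoid system. The labels name neither the mouse strain, the number of animals nor whether replicates were separate cultures, and p-values therefore describe no more than the variation among these 6 libraries, which could be technical.

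Mitotic kinesins are made in dividing cells, where most of their transcripts peak between G2 and mitosis, and in the intestine these are the cells of the crypt. Kinesins that carry cargo are made in dividing and non-dividing cells alike. In the polarised epithelium microtubules run along the height of the cell, and motors on them sort cargo toward the apical and the basal side.

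Total counts ranged from 18395427 to 26767043 per library. Levels are given as CPM, each gene's count relative to its library's total after scaling with edgeR's TMM factors, and the test was edgeR's quasi-likelihood F-test over 12592 genes, two-sided, with Benjamini-Hochberg adjustment over all of them. A gene is called where the adjusted p is under 0.05. The labelled tissue matched its markers, since 8 epithelial genes summed to 8225 to 8366 CPM with DMSO and 9096 to 9694 CPM with NIBR-LTSi. Members went both ways, with Krt8, Krt18 and Krt19 called higher and Vil1 and Cdx1 called lower. Fibroblast markers summed to 2.28 to 3.40 and 1.96 to 2.01 CPM, with Dcn and Lum at 0 in every library. Endothelial and muscle markers summed to 0.721 to 0.889 and 0.512 to 0.774 CPM (Cdh5, Kdr and Des at 0), and neuronal and glial markers to 1.28 to 1.56 and 1.03 to 1.51 CPM (Sox10 at 0).

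Upstream sequences are shown first for 4 mitotic kinesins. Kif11, Kif15 and Kif22 were picked because they share a short element just before the start, and Kif23 because it changed most. Kif18a, Kif18b, Kif20b and Kif4 also rose, and their windows near the start do not hold that element. The sequences are RefSeq's, assembly GRCm38.p6 (the assembly of mm10), given 5′ to 3′ on the gene's strand. Capitals mark the letters TTTGAA, the core of the cell cycle homology region (CHR) element known from promoters of mitotic genes, or CCAAT, the NF-Y box, each on either strand, so that TTCAAA and ATTGG are the same elements read on the opposite strand. For Kif11 the 100 bases before the start are given (chr19:37376282-37376381, plus strand). The Kif15 stretch is 30 bases long and leaves out the 10 bases next to the start (chr9:122951041-122951070, plus strand), and that of Kif22 is the 30 bases before the start of its window's transcript (chr7:127042421-127042450, minus strand). That start lies 47 bases inside the annotated Kif22 gene, so the Kif22 stretch is not upstream of the gene's outermost start. For Kif23, the kinesin with the strongest change, 100 bases are given that leave out the 11 next to the start, so as to lie upstream of every annotated start (chr9:61946811-61946910, minus strand).
Kif11: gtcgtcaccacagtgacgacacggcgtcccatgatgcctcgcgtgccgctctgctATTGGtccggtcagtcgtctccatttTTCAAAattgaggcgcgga
Kif15: gtggtccgttggggcgccaaaTTCAAAtct
Kif22: ggggccccggtaaTTCAAAagagagaagcg
Kif23: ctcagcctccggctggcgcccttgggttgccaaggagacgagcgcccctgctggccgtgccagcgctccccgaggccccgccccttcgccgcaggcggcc

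Counting the base just before the start as -1, the CHR letters began at -19 in Kif11, -19 in Kif15 and -17 in Kif22. The starts are RefSeq's. Bases just after the start were found in a GENCODE M21 transcript for Kif15, but not for Kif11, Kif22 or Kif23. A window of 250 bases before a start within 250 bases of the gene's outermost annotated start was at hand for 9 mitotic kinesins. TTTGAA on either strand was present in 3 of these 9, against 10.8% of the 8695 such windows of tested genes. CCAAT was present in 6 of the 9, against 38.1%. GGAATG, the core letters bound by the TEAD partners of YAP, was in 0 of the 9, against 10.6%. Among the transport kinesins 9 had such a window, with TTTGAA in 0, CCAAT in 2 and GGAATG in 1. Of the other class 7 had one, with TTTGAA in 1, CCAAT in 3 and GGAATG in 2. The transport and other counts include kinesins with too few reads to be tested, unlike the background. The TTTGAA match of the other class is in Kif26b and 1 of its GGAATG matches is in Kif6, and neither gene was tested. The windows of Kif14 and Kif2c begin at starts 1547 and 3852 bases inside the gene. With these and all other listed windows counted, TTTGAA was in 5 of 11 mitotic kinesins, against 10.9% of 12781 windows. It was in 2 of 10 of the other class and in 1 of 10 transport kinesins (Kif1a, 19559 bases inside the gene). The limit on the distance was set after the data were seen. The Kif23 window held no TTTGAA and no GGAATG, and 1 CCAAT at -7 that is outside the stretch shown. The 3 motifs do not overlap each other in the stretches shown, and a match in letters says nothing of binding.

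With NIBR-LTSi, 11 of 12 mitotic kinesins rose and none fell, against 22.8% of all tested genes called higher and 19.2% called lower. The median fold change of the class was 1.55-fold, while over all tested genes it was 1.01-fold. Of the transport kinesins 3 of the 10 that passed the low-count filter rose and none fell (median 1.10-fold), and of the 13 others 2 of 8 tested rose and none fell (median 1.13-fold). Higher calls made up 30.0% of the tested transport members and 25.0% of the others, near or above the 22.8% over all genes. Called genes in either direction made up 42.0% of all genes, and on that count both classes were below the background. In all, 30 of the 40 rows were tested and 10 were below the filter. No test between the classes was made, since the classes are lists and not replicates.

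In each of the 11 mitotic kinesins that rose, all NIBR-LTSi libraries lay above all DMSO libraries, which held for 28.0% of tested genes. The counts come from whole organoids, so more dividing cells and more kinesin RNA per cell cannot be told apart. The 20 replication genes listed beside them, which mark cells in S phase, also all rose, against 22.8% of tested genes called higher. That list, too, was chosen with earlier results of these data known.

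**Figure D1:**
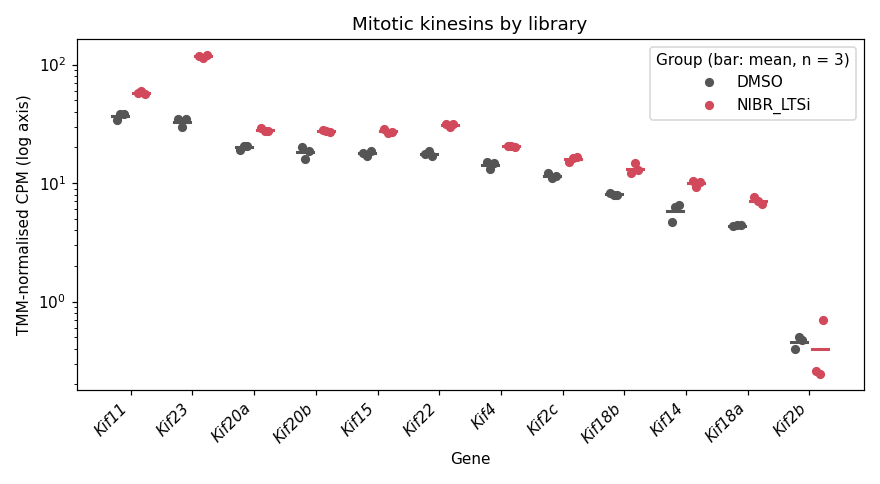
TMM-normalised CPM (log axis) of the 12 mitotic kinesins in each library, ordered by the DMSO mean, with DMSO in grey and NIBR-LTSi in red, points for libraries and bars for means of 3. Kif23 moves from 33.0 to 117 CPM, 10 other genes shift by 1.38 to 1.75-fold, and Kif2b stays below 1 CPM.

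Kif23, also called MKLP1, is the motor subunit of the centralspindlin complex, which bundles the microtubules of the spindle midzone and brings in the machinery of cytokinesis. It lies on chromosome 9 (61917277 to 61946810, minus strand), and no exon of another annotated gene overlaps its exons. Its level was 34.7, 29.9 and 34.5 CPM in DMSO replicates 1 to 3, and 118, 113 and 121 CPM in NIBR-LTSi replicates 1 to 3. The lowest treated library was thus above 3 times the highest control library. The fold change was 3.54, a log2 fold change of 1.82 ± 0.06 (SE, n = 3 per group; edgeR adjusted p = 1.15e-09). Only 109 of the 12592 tested genes had a higher log2 fold change.

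The other members of its kinesin-6 subfamily moved less. Kif20a, or MKLP2, takes the chromosomal passenger complex to the midzone, and was at 19.2, 20.7 and 20.6 CPM with DMSO and at 29.3, 27.8 and 27.4 CPM with NIBR-LTSi. Its fold change was 1.40 (log2 0.48 ± 0.06, SE; edgeR adjusted p = 7.73e-05). The 2 groups did not overlap. Of its exonic bases 29.3% are shared with Cdc23 on the opposite strand (24.2 CPM on average), and as the strand setting of the counting is not given, part of its reads could be those of Cdc23. Kif20b, which acts late in cytokinesis, was at 20.2, 16.0 and 18.6 CPM with DMSO and rose to 28.2, 27.6 and 27 CPM (1.5-fold, log2 0.59 ± 0.08; edgeR adjusted p = 1.04e-04). The ratio of Kif23 to Kif20a, which is free of library scaling, was 1.81, 1.45 and 1.67 in the DMSO libraries and 4.02, 4.06 and 4.41 in the NIBR-LTSi libraries. Kif23 made up 17.5 ± 1.1% (SD, n = 3) of the summed CPM of the mitotic class with DMSO and 32.9 ± 1.0% with NIBR-LTSi.

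Spindle assembly motors come next. Kif11, or Eg5, slides antiparallel microtubules apart to make the spindle bipolar, and was the mitotic kinesin with the highest mean CPM in controls. In DMSO replicate 1, though, Kif23 was above it (34.7 against 33.8 CPM). The level of Kif11 was 33.8, 38.2 and 38.2 CPM with DMSO and 57.1, 60.3 and 56.5 CPM with NIBR-LTSi, a 1.58-fold rise (log2 0.66 ± 0.06; edgeR adjusted p = 4.08e-06). Kif15, which can take over from Kif11 in holding the poles apart, had 17.9, 17.1 and 18.8 CPM with DMSO and 28.4, 26.6 and 26.9 CPM with NIBR-LTSi. That is a 1.52-fold rise, and the spread within either group was small beside the gap between them. These 2 genes and Kif22 carry the CHR letters shown above.

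Of the chromosome-bound and chromosome-aligning motors, Kif22, or Kid, pushes chromosome arms toward the spindle equator. It was at 17.5, 18.7 and 16.9 CPM with DMSO and at 31.3, 29.9 and 31.5 CPM with NIBR-LTSi (1.75-fold, log2 0.81 ± 0.06; edgeR adjusted p = 1.24e-06). Kif4, the chromokinesin that works with PRC1 on the midzone, was at 15.0, 13.3 and 14.7 CPM and rose to 20.5, 20.7 and 20.4 CPM, 1.43-fold. Of its exonic bases 15.1% are shared with Pdzd11 on the opposite strand (31.9 CPM on average). Kif18a dampens the swinging of chromosomes at the spindle equator and had a low level, with 4.37, 4.39 and 4.39 CPM with DMSO and 7.64, 7.12 and 6.62 CPM with NIBR-LTSi (1.62-fold; edgeR adjusted p = 4.01e-04). Its relative Kif18b, which shortens astral microtubules, was at 8.29, 7.94 and 7.89 CPM and rose to 12.2, 14.6 and 13 CPM, 1.65-fold.

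Kif14, which binds citron kinase in cytokinesis, was at 4.69, 6.28 and 6.47 CPM with DMSO, with replicate 1 the lowest, and at 10.4, 9.33 and 10.3 CPM with NIBR-LTSi. Its rise was 1.73-fold (log2 0.79 ± 0.13; edgeR adjusted p = 3.63e-04). Of the microtubule depolymerases of the kinesin-13 subfamily, Kif2c, or MCAK, which corrects wrong kinetochore attachments, was at 12.1, 11 and 11.6 CPM with DMSO and 15.2, 16.2 and 16.5 CPM with NIBR-LTSi (1.38-fold, log2 0.46 ± 0.08; edgeR adjusted p = 4.59e-04). Kif2b was the member that was not called. It had 59 reads over all libraries, with 0.401, 0.50 and 0.472 CPM with DMSO and 0.258, 0.245 and 0.695 CPM with NIBR-LTSi, and its log2 fold change of -0.14 had a 95% interval from -1.12 to 0.85. This interval includes the log2 median of the class, 0.63, and does not reach the change of Kif23.

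**Figure D2:**
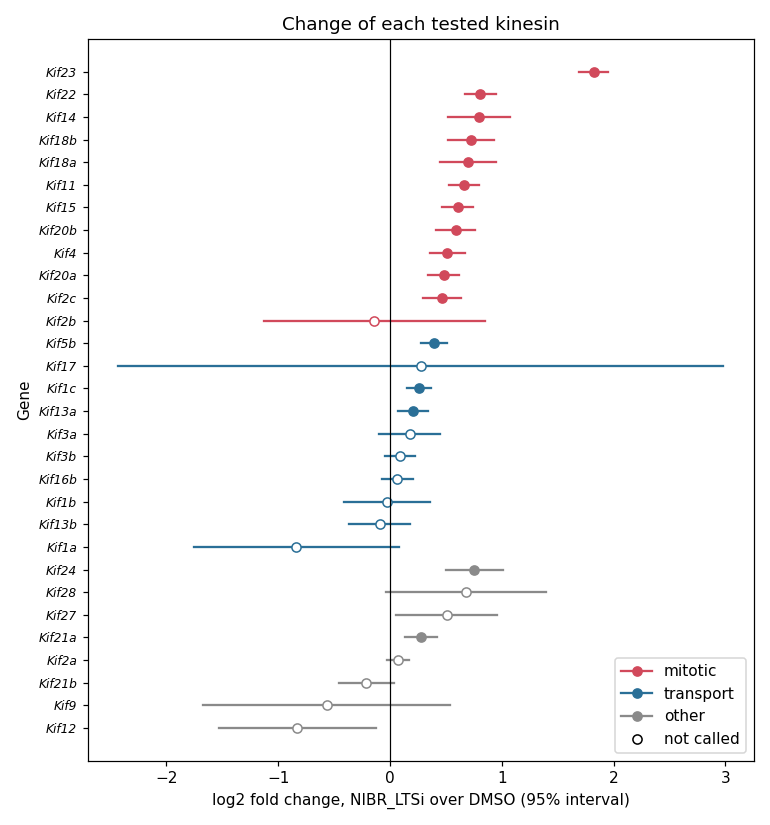
Log2 fold change, NIBR-LTSi over DMSO, of the 30 tested kinesins with an unadjusted 95% interval, in red for mitotic, blue for transport and grey for other members, with open circles for those not called. The 11 called red points are at 0.46 or above and Kif23 is at 1.82, while the called transport kinesins are between 0.21 and 0.40.

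Per length, the most abundant kinesins were carriers. Expressed as RPKM (TMM-scaled CPM per kilobase of the deposited gene width), Kif1c was at 42.9 ± 3.0 and Kif5b at 35.3 ± 2.5 (SD, n = 3) with DMSO, followed by Kif2a at 9.84 ± 0.32, Kif13a at 9.54 ± 0.85 and Kif3b at 7.0 ± 0.54. Kif2a and Kif13a differed by less than the larger of their SDs, and so did Kif1b (6.68 ± 0.97) from both Kif3b and Kif16b (6.32 ± 0.54). Kif23 was 8th at 5.75 ± 0.47 RPKM with DMSO, below Kif16b and within the spread of Kif13b (5.37 ± 0.85). With NIBR-LTSi it was at 20.4 ± 0.7 RPKM, above Kif13a (11 ± 0.4) and below Kif5b (46.5 ± 2.0). The next mitotic kinesins with NIBR-LTSi were Kif11 at 7.77 ± 0.28 and Kif20a at 6.49 ± 0.23 RPKM.

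The 3 transport kinesins that rose had the highest DMSO levels per length in their class. Kif5b, the widely expressed heavy chain of conventional kinesin, was at 263, 254 and 290 CPM with DMSO and at 371, 341 and 349 CPM with NIBR-LTSi, with no overlap (1.32-fold, log2 0.40 ± 0.05; edgeR adjusted p = 1.02e-04). Kif1c, a fast vesicle carrier, was at 310, 291 and 335 CPM and rose to 383, 369 and 368 CPM (1.20-fold, log2 0.26 ± 0.05; edgeR adjusted p = 0.00110). Kif13a, which moves recycling endosomes, was at 78.9, 71.2 and 85.0 CPM with DMSO and 92.8, 86.7 and 92.1 CPM with NIBR-LTSi (1.15-fold; edgeR adjusted p = 0.0181). The 2 groups of Kif13a are close, at 85.0 and 86.7 CPM where they come nearest. It was no longer called when DMSO replicate 1 (adjusted p = 0.0599), DMSO replicate 2 (0.0541), NIBR-LTSi replicate 1 (0.0575) or NIBR-LTSi replicate 3 (0.0868) was left out.

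Among abundant carriers that were not called, Kif1b, which moves mitochondria and synaptic vesicle precursors, was at 106, 113 and 138 CPM with DMSO and 136, 106 and 109 CPM with NIBR-LTSi. The groups overlapped, with DMSO replicate 3 and NIBR-LTSi replicate 1 high, and the log2 fold change of -0.03 had a 95% interval from -0.41 to 0.36. Kif13b, a relative of Kif13a, was at 65.5, 61.7 and 82.5 CPM with DMSO and 70.3, 62.6 and 64.3 CPM with NIBR-LTSi, again with DMSO replicate 3 the highest library. Its log2 fold change was -0.09, with an interval from -0.37 to 0.18. Kif16b, a motor of early endosomes, was at 54.8, 54.2 and 63.0 CPM with DMSO and 63.3, 58.6 and 58.2 CPM with NIBR-LTSi (interval -0.07 to 0.20).

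Kif3a and Kif3b together form the motor of intraflagellar transport, the traffic that builds primary cilia. Kif3b was at 41.4, 35.9 and 41.0 CPM with DMSO and 41.6, 42.8 and 41.9 CPM with NIBR-LTSi, a log2 fold change of 0.09 with an interval from -0.04 to 0.23. Kif3a was at 4.73, 4.83 and 4.63 CPM and at 5.78, 4.75 and 5.56 CPM (log2 fold change 0.18, interval -0.09 to 0.45). Per length Kif3b was well above Kif3a, with 7.0 against 1.32 ± 0.03 RPKM in DMSO. The intervals of Kif3a, Kif3b, Kif1b, Kif13b and Kif16b all end below the 1.55-fold median of the mitotic class, which is 0.63 on the log2 scale.

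The remaining transport kinesins were barely expressed. Kif1a, the neuronal and endocrine carrier of dense-core and synaptic vesicles, was at 0.641, 0.722 and 0.567 CPM with DMSO and 0.568, 0.164 and 0.366 CPM with NIBR-LTSi, and was not called (log2 fold change -0.84, adjusted p = 0.133). Enteroendocrine markers summed to 379 to 399 CPM with DMSO and 280 to 289 CPM with NIBR-LTSi, with 3 of 7 called lower (19.2% over all genes) and none at 0, and their part in the Kif1a values was not tested. Kif17, a kinesin of dendrites and cilia, varied from 0.103 to 2.16 CPM within the NIBR-LTSi group and from 0.333 to 1.89 CPM within the DMSO group, so its interval reached from -2.43 to 2.98. Kif5a (47 reads in all), Kif3c (39) and Kif5c (33), the neuronal relatives of Kif5b and Kif3b, were below the filter.

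**Figure D3:**
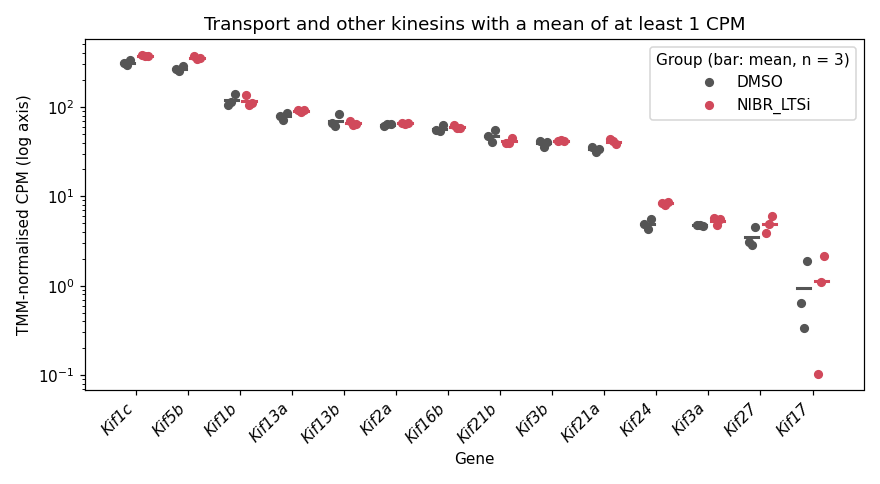
TMM-normalised CPM (log axis) of tested transport and other kinesins with a mean of at least 1 CPM, in each library, with bars for group means of 3. Kif5b and Kif1c separate between the groups, as do Kif24 and Kif21a, while Kif1b, Kif13b, Kif16b and Kif21b overlap.

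Within the other kinesins, Kif24 and Kif21a rose. Kif24, a depolymerase of the kinesin-13 subfamily that sits at centrioles and holds back ciliation in cycling cells, was at 4.85, 4.33 and 5.62 CPM with DMSO and 8.41, 8.02 and 8.63 CPM with NIBR-LTSi. Its rise of 1.69-fold (log2 0.76 ± 0.12; edgeR adjusted p = 2.87e-04) was within the range of the mitotic class, to which it can also be counted. Kif21a, which halts microtubule growth at the cell cortex, was at 35.4, 31.3 and 34.3 CPM and rose to 43.5, 41.1 and 38.4 CPM (1.21-fold; edgeR adjusted p = 0.00508). Its close relative Kif21b was at 47.9, 40.5 and 54.6 CPM with DMSO and 39.5, 39.8 and 44.4 CPM with NIBR-LTSi, and was not called (log2 fold change -0.21, adjusted p = 0.149), but it was called lower without DMSO replicate 2 (log2 -0.31, adjusted p = 0.0107). The groups of Kif21b overlap and those of Kif21a do not.

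Kif2a, the depolymerase of interphase and spindle microtubules, was at 60.6, 64.4 and 63.7 CPM with DMSO and 66.2, 65.2 and 66.9 CPM with NIBR-LTSi. All treated libraries were above all controls, yet the log2 fold change was only 0.07 (interval -0.03 to 0.17; edgeR adjusted p = 0.223). Of its exonic bases 19.2% are shared with Dimt1 on the opposite strand (3.39 CPM on average). Kif27, a ciliary relative of Kif7, was at 3.08, 2.83 and 4.53 CPM with DMSO and 3.92, 4.91 and 5.96 CPM with NIBR-LTSi. It was not called (log2 fold change 0.51, adjusted p = 0.0687), but was called higher without DMSO replicate 3 (adjusted p = 0.0104) or NIBR-LTSi replicate 1 (0.0237).

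Low-level members make up the rest. Kif12, a kinesin of renal and biliary epithelium, was at 0.881, 1.22 and 0.756 CPM with DMSO and 0.413, 0.614 and 0.548 CPM with NIBR-LTSi, and missed the threshold (log2 fold change -0.83, adjusted p = 0.0564). Kif9 and Kif28 had 76 and 124 reads over all libraries and were not called, and 4.36% of the exonic bases of Kif28 are shared with the far more abundant Ahctf1 on the same strand (78.7 CPM on average). Kif19a, which trims the length of motile cilia, had 28 reads and was below the filter, with 11, 5 and 7 in the DMSO libraries and 1, 2 and 2 in the NIBR-LTSi libraries. Kif7 (7 reads), Kif26a (12), Kif26b (4), Kif6 (1), Kif16bos (3) and Kif4-ps (0) had too few reads for a comparison.

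Summed over their members, mitotic kinesins other than Kif23 went from 155 ± 3 CPM (SD, n = 3) with DMSO to 239 ± 2 CPM with NIBR-LTSi, a ratio of 1.54. Replication genes went from 452 ± 7 to 721 ± 4 CPM, a ratio of 1.59. Mitotic kinesins without Kif23 thus amounted to 34.4 ± 1.2% of the replication sum with DMSO and 33.2 ± 0.4% with NIBR-LTSi, with ranges of 33.7 to 35.7% and 32.8 to 33.6%. The replication sum is weighted toward Pcna, its largest member, which supplied 106 of the 452 CPM in controls and rose only 1.37-fold. By list medians, the rises were 1.52-fold for mitotic kinesins without Kif23 and 1.70-fold for replication genes. The share without Pcna was not tested. Transport kinesins summed to 953 ± 81 CPM and 1111 ± 48 CPM, a ratio of 1.17 that came mainly from Kif5b and Kif1c. With Kif23 included, the mitotic class went from 188 ± 5 CPM with DMSO to 356 ± 3 CPM with NIBR-LTSi, a ratio of 1.89. Kif23 thus included, it held 13.8 to 15.1% of the summed CPM of the mitotic, transport and other classes in the DMSO libraries. In the NIBR-LTSi libraries it held 21.2 to 22.2%. The share without Kif23 was not computed. Cenpe and the Kifc genes are not part of these sums.

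**Figure D4:**
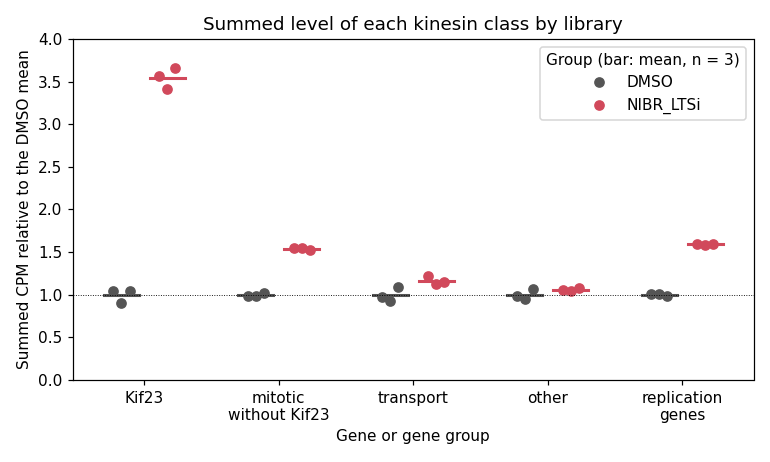
Summed CPM of each gene group in each library divided by the DMSO mean of that group, with bars for the mean of 3 libraries. Kif23 stands at 3.54 on average with NIBR-LTSi, the other mitotic kinesins at 1.54 and replication genes at 1.59, while the transport and other classes are at 1.17 and 1.06.

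Of the kinesins with other symbols, 3 of 5 rose and none fell, beside 22.8% called higher and 19.2% called lower over all genes. Kifc3, a minus-end motor of epithelial junctions and apical transport, rose 2.45-fold from 41.2 to 101 CPM (log2 1.29 ± 0.05; edgeR adjusted p = 5.48e-09), more than any member of the Kif transport class. Kifc1, which focuses spindle poles, rose 1.74-fold and Cenpe, the kinetochore motor that carries chromosomes to the equator, rose 1.38-fold (edgeR adjusted p = 0.00937). Kifc2 (log2 fold change -0.35, adjusted p = 0.267) and Kifc5b (0.19, adjusted p = 0.306) were not called. Kifc1 and Kifc5b are near-identical copies, so their reads could have been split between them by the counting.

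All 20 listed partners of mitotic kinesins rose, with a median of 1.55-fold, against 22.8% of tested genes called higher. The list was chosen with earlier results of these data known, so this count is a description and not independent support. Ect2, which centralspindlin recruits to the cell equator for cytokinesis, had the largest change of the list, a rise from 20.8 to 55.9 CPM (2.70-fold, log2 1.43 ± 0.07; edgeR adjusted p = 2.31e-08). Racgap1, the partner subunit of Kif23 in centralspindlin, rose from 31.9 to 49.6 CPM, 1.56-fold, which is close to the list median and under the change of Kif23. Cdk1, the kinase of mitotic entry, rose 1.58-fold and Hmmr, a spindle pole protein, 1.66-fold. Named after their values were seen, the partners of single kinesins gave 1.59-fold for Tpx2 (Kif11 and Kif15), 1.5-fold for Prc1 (Kif4) and 1.74-fold for Cit (Kif14).

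Among 17 light chains and adaptors of transport kinesins, 1 was called higher and 3 lower, and the median log2 fold change was -0.03. The called share was 23.5%, beside 42.0% over all genes. Trak2, which ties mitochondria to Kif5 motors, rose 1.43-fold. Clstn1, a cargo receptor that binds light chains, fell from 242 to 186 CPM (log2 fold change -0.37), Arl8a, which recruits kinesin to lysosomes, fell from 51.2 to 38.0 CPM (-0.42), and the light chain Klc4 fell from 169 to 153 CPM (-0.15, adjusted p = 0.0131). Klc4 was no longer called when DMSO replicate 1 (adjusted p = 0.0679), NIBR-LTSi replicate 2 (0.0549) or NIBR-LTSi replicate 3 (0.0538) was left out, or with library totals in place of TMM (0.0600). The light chains Klc1 and Klc2 and Kifap3, the third subunit of the Kif3 motor, were not called.

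In the list of cytoplasmic dynein and dynactin, the opposing minus-end motor, 6 of 23 tested genes rose and 5 fell, a share of 47.8% beside the background of 42.0%. With any 1 library left out 4 to 5 rose, and without NIBR-LTSi replicate 2 only 3 fell. Bicd1, an adaptor that links dynein to vesicles, rose 6.29-fold from 1.28 to 8.04 CPM (log2 2.65 ± 0.17; edgeR adjusted p = 2.13e-07), and its relative Bicd2 rose 1.36-fold. Nde1, a dynein regulator with a role in mitosis, rose 1.59-fold, and its paralogue Ndel1 fell from 66.4 to 53.9 CPM (log2 fold change -0.30). Of 12 tested tubulins 3 rose, 25.0% beside 22.8% called higher over all genes: Tubb5 (1.5-fold, from 166 to 248.9 CPM), Tuba1b (1.48-fold) and Tubg1 (1.14-fold, a call lost without any 1 of the 6 libraries), while the most abundant by CPM, Tubb4b, was at 411 and 386 CPM (adjusted p = 0.0558). Tubb4b was called lower without NIBR-LTSi replicate 1 (adjusted p = 0.0415).

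Genes of intraflagellar transport, the cargo trains of the Kif3 motor, had 2 of 19 tested members higher and 2 lower, 21.1% beside 42.0% over all genes. Ttc21b rose 1.39-fold and Traf3ip1 1.30-fold. Ift22 fell from 12 to 6.51 CPM (log2 fold change -0.89), and Cluap1 fell from 24.4 to 21.5 CPM (-0.18, adjusted p = 0.0395). Cluap1 was no longer called when DMSO replicate 1 (adjusted p = 0.129), DMSO replicate 2 (0.0911), NIBR-LTSi replicate 2 (0.122) or NIBR-LTSi replicate 3 (0.0515) was left out. Replication genes, a list chosen with earlier results known, were all called higher, against 22.8% of tested genes, with a median of 1.70-fold. Those with the smallest p were Mcm5 (1.84-fold), Rrm1 (1.68-fold), Mcm6 (1.87-fold) and Mcm4 (1.79-fold).

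**Figure D5:**
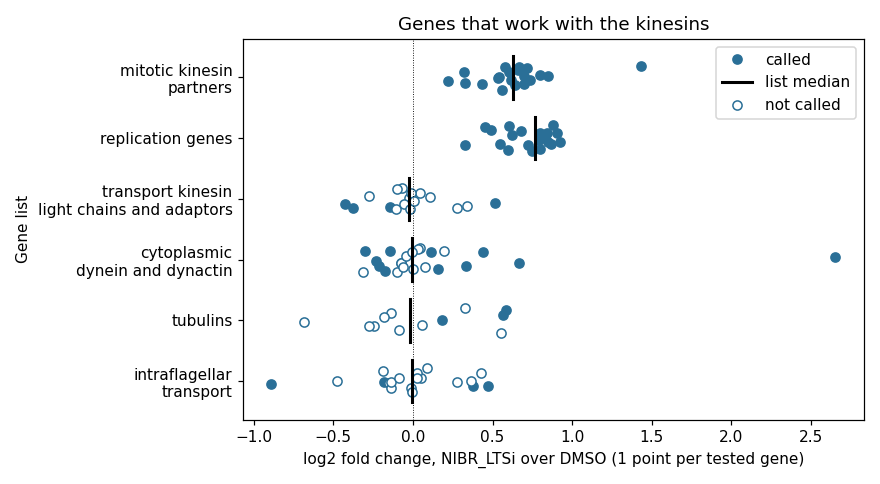
Log2 fold change, NIBR-LTSi over DMSO, of each tested gene in 6 lists of genes that work with kinesins or mark replication, with filled points for called genes and a black line for the list median. The 2 upper lists are wholly above 0 with medians of 0.63 and 0.77, the 4 lower ones have medians between -0.03 and 0.00, and Ect2 (1.43) and Bicd1 (2.65) lie apart from their lists.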

How the data were processed

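RNA was purified from organoids digested to single cells and made into libraries with a stranded kit for messenger RNA, per the labels' protocols. The authors deposited 1 table of whole-number read counts per gene with a gene width, and genome build mm10 and edgeR are named without a version in the submitters' processing notes. The aligner, the counter and whether counting used strand: not given in the sources used here. Counts were filtered with filterByExpr, scaled with TMM and tested with edgeR 4.0.16 (R 4.3.3; robust quasi-likelihood fit, group as the only term, 4 residual degrees of freedom). The approximate SE is the size of the log2 fold change over the square root of F. Groups came from sample titles. Every kinesin row is reported, and up to 4 genes with the smallest p from each context list. Members and lists were chosen with earlier results of these data known. No replicate pair agreed within sampling noise (chi-square per degree of freedom 4.46 to 11.3). The procedure was run on simulated counts with far fewer changed genes than were called here. That run does not test the scaling at the share of called genes in these data. Alternatives were limma-voom (3.58.1), DESeq2 (1.42.0), other scalings and filters, a replicate block, left-out libraries and other class assignments. They were applied to the context lists after the data were seen. Positions come from RefSeq (GRCm38.p6) and exon overlaps from GENCODE M21. Distances of windows from the gene's outermost start use RefSeq gene bounds. Promoter windows matched 32 kinesin rows.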

Additional observations from a re-analysis of the deposited data

How the results depend on the processing

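Under 15 alternatives 11 mitotic kinesins rose and none fell, and 12 rose when Kif2a and Kif24 were counted as mitotic. In 1 of the 15 only transport members were moved to another class, so its mitotic count could not change. The mitotic median log2 fold change of 0.63 was 0.68 with library totals only and ranged from 0.60 to 0.67 over left-out libraries. Transport calls ranged from 2 to 3 and those of the other class from 2 to 3 higher and 0 to 1 lower over left-out libraries, and 1 other member was lower with no low-count filter (Kif19a) and with the replicate block (Kif21b). The other class had 1 higher and a median of 0.034 with Kif2a and Kif24 moved out, and a median of 0.28 with at least 1 CPM in 3 libraries. Signs turned for uncalled genes: Kif2b (-0.24 to 0.10), Kif17 (-0.61 to 1.20; -0.025 in limma-voom), Kif1b (-0.15 to 0.10; 0.019 with library totals only; positive without DMSO replicate 3, 0.098, NIBR-LTSi replicate 2, 0.031, or replicate 3, 0.015) and Kif13b (-0.17 to 0.042), all over left-out libraries. DESeq2 called 1 kinesin with another symbol lower (Kifc2). Of the mitotic partners 19 to 20 rose over left-out libraries. Light chains and adaptors had 2 higher with library totals only and 1 to 2 over left-out libraries, and 4 to 5 dynein genes were higher and 3 to 6 lower over left-out libraries. Of the tubulins, 1 was lower (Tubb4b) with DESeq2 size factors, with at least 1 CPM in 3 libraries and in DESeq2, and 0 to 1 over left-out libraries. Of the intraflagellar transport genes, 1 was lower with library totals only, no low-count filter, the replicate block and DESeq2, and 1 to 3 over left-out libraries. The cause of these shifts was not tested. Replicate numbers did not pair the samples: deviations from the group means correlated at 0.05, -0.30 and 0.56 for the same number. With the replicate block 4945 genes were called, against 5287 without. It called Kif27 higher (adjusted p = 0.0264) and Kif21b lower (0.0302), and lost Tubg1 (0.0731) and Cluap1 (0.0718). Depth limits the members under about 1 CPM, whose intervals are wide.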
